A study of Arabidopsis thaliana with 27 samples.

Results

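SEP1 (AT5G15800), SEP2 (AT3G02310), SEP3 (AT1G24260) and SEP4 (AT2G03710) with AP1 (AT1G69120), CAL (AT1G26310) and FUL (AT5G60910) are the SEPALLATA and AP1 clade genes of Arabidopsis thaliana. They were taken by locus identifier from the supplied gene table and make up 7 of its 37899 nuclear loci. All 7 were found and all 7 are protein-coding; the table lists FUL under its other name, AGL8. Whole 14-day-old seedlings were profiled by chromatin immunoprecipitation with sequencing, and the data are the authors' lists of peaks, each with a score. Trimethylation of lysine 27 of histone H3 (H3K27me3) was mapped in ref6-1, brm-1, the brm-1 ref6-1 double mutant and wild type (WT), with 2 libraries each. The mutants are written ref6, brm and brm ref6 from here on. The histone demethylase REF6 was mapped through a GFP fusion in brm (2 libraries), in WT by the design text (2 libraries) and in 1 first library whose label names no background. The chromatin remodeller BRM was mapped through its own GFP fusion in ref6 (2 libraries; the label of replicate 2 names a ProBRM-BRM-GFP transgene in the ref6-1 background), in WT (1 library) and in 1 first library of unnamed background. Whether the GFP lines of other labels also carried a mutation in the tagged gene is not given in the sources used here.

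All 7 genes encode MADS-box transcription factors. SEPALLATA proteins join other MADS-box proteins in the complexes that specify the floral organs, and AP1, CAL and FUL promote the identity of the floral meristem, with a later role for FUL in fruit. In vegetative tissue such floral genes are known targets of Polycomb group proteins, which deposit H3K27me3 on silent genes. REF6 removes that mark, and BRM is the ATPase of a SWI/SNF complex that moves nucleosomes.

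The H3K27me3 lists differed in reach, which bears on each value that follows. ref6 replicate 1 covered 5.31 Mb with narrow peaks (median width 289 bp) and ref6 replicate 2 covered 11.5 Mb with wide ones (1575 bp), while the other 6 lists covered 6.99 to 10.9 Mb with median widths of 332 to 527 bp. The lists hold no reads, so the depth is unknown and a missing peak is not proof that the mark was absent. No label ties the replicates to separate plantings, and p-values therefore measure only the spread between these samples, which may be technical. The loci ACT2, UBQ10, RBCS1A and CAB1, active in seedlings, had 0% coverage in all 8 lists, and the silent seed storage loci CRA1, CRC and SESA1 had 88.9% to 100%. In whole seedlings a mark present in fewer cells and a weaker mark in each cell cannot be told apart.

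**Figure D1:**
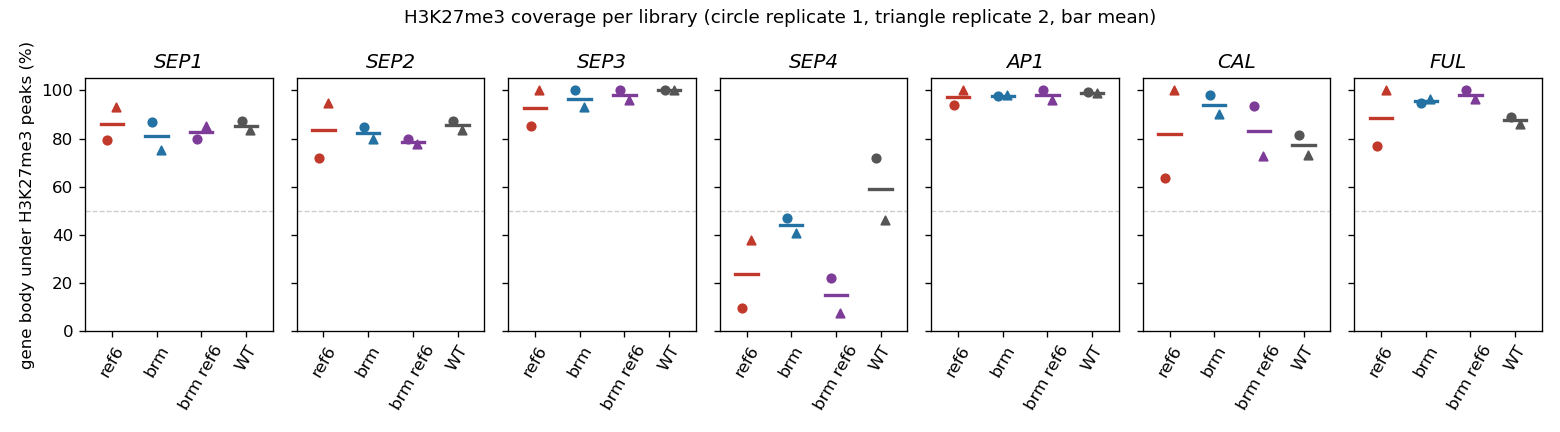
Percent of each gene body under H3K27me3 peaks (y axis) in each library of ref6, brm, brm ref6 and WT (x axis); circles are replicate 1, triangles replicate 2, bars the mean of both, and the dashed line the 50% bound for calling a gene marked. Only SEP4 falls below 50%, in 7 of the 8 libraries.

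H3K27me3 lay over most of the body of 6 of the genes in seedlings of every genotype, and over part of SEP4. A gene was called marked in a library where peaks lay over 50% or more of its body. SEP1, SEP2, SEP3, AP1, CAL and FUL were marked in all 8 libraries, which is 6 of 7 genes, where 5.41% of all 27444 protein-coding genes were. SEP4 was marked in WT replicate 1 alone. With the bound at 80% the count fell to 2, SEP3 and AP1.

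SEP3, whose product joins many floral MADS-box complexes, and AP1 were the most fully covered. SEP3 had 85.4% and 100% of its body under peaks in ref6, 100% and 93.2% in brm, 100% and 95.9% in brm ref6 and 100% in both WT libraries. AP1, a floral meristem and sepal identity gene, had 94.2% and 100% in ref6, 97.8% and 98.003% in brm, 100% and 96.1% in brm ref6 and 99.2% and 98.8% in WT. The genotypes overlapped at SEP3, and at AP1 brm lay below WT by little more than 1 point. The pair differed by 2.25 percentage points on average over the 8 libraries, the closest of the 21 pairs of genes.

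SEP1 and SEP2, which act redundantly with SEP3 in the flower, were alike too, at 2.94 points apart. SEP1 had 79.4% and 93.1% in ref6, 86.7% and 75.5% in brm, 79.9% and 85.4% in brm ref6 and 87.2% and 83.5% in WT. SEP2 had 72.1% and 94.7% in ref6, 85.0% and 79.99% in brm, 79.7% and 77.7% in brm ref6 and 87.4% and 83.7% in WT. Both genes were bare over a stretch at the low-coordinate end, of 202 to 649 bp at SEP1 and 151 to 642 bp at SEP2, in every library. The gene table gives no strand, so ends are named by coordinate. At the other end the SEP2 peaks ran 410 to 686 bp past the gene in all 8 libraries, and those of SEP1 ended between 104 bp inside it and 129 bp past it.

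CAL, a close relative of AP1 with an overlapping role in the floral meristem, varied more. Its coverage was 63.6% and 100% in ref6, 98.0005% and 90.3% in brm, 93.7% and 73.0% in brm ref6 and 81.3% and 73.2% in WT. The spread between the ref6 replicates exceeded every difference between genotype means. CAL peaks passed the high-coordinate end in all 8 libraries, by 13 bp at the least and 3672 bp at the most. In both brm lists, in ref6 replicate 2 and in brm ref6 replicate 1, a single peak ran from CAL over 94.8% to 100% of the neighbouring gene AT1G26320, which starts 1394 bp away and was itself covered over 77.1% to 100% of its body in all 8 lists. In brm replicate 1 that peak was chr1:9100067-9107316 with a score of 3100, the score being the authors' own, which MACS 1.4 writes as −10 times log10 of a p-value.

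FUL, which acts in the inflorescence meristem and in fruit, had 77.0% and 100% in ref6, 94.9% and 96.4% in brm, 100% and 96.5% in brm ref6 and 88.9% and 86.2% in WT. Both brm and both brm ref6 libraries lay above both WT libraries, and ref6 lay on either side of them. FUL was held by several peaks in 6 of 8 libraries, with a gap inside the gene between a shorter and a longer peak in ref6 replicate 1, both brm and both WT lists, and 3 peaks in brm ref6 replicate 2.

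SEP4, a SEPALLATA gene that is also expressed outside the flower, stood apart from the other 6. Its coverage was 9.81% and 38.1% in ref6, 47.2% and 40.9% in brm, 22.4% and 7.85% in brm ref6 and 71.9% and 46.1% in WT. The 4 libraries of genotypes that lack REF6 were the lowest 4 in the lists as deposited, an order that did not hold, as given further on, when all lists were trimmed to the same covered length. SEP4 differed by 47.0 to 62.5 points on average from each of the other 6 genes, where those 6 differed from one another by 2.25 to 15.5 points. Its highest-scoring peak per list also scored low, at 99.3 and 109 in ref6, 517 and 583 in brm, 100.1 and 57.3 in brm ref6 and 331 and 328 in WT. Peaks stood in the low-coordinate part of the gene in all 8 lists. The last 442 bp at the high-coordinate end were bare in every list.

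**Figure D2:**
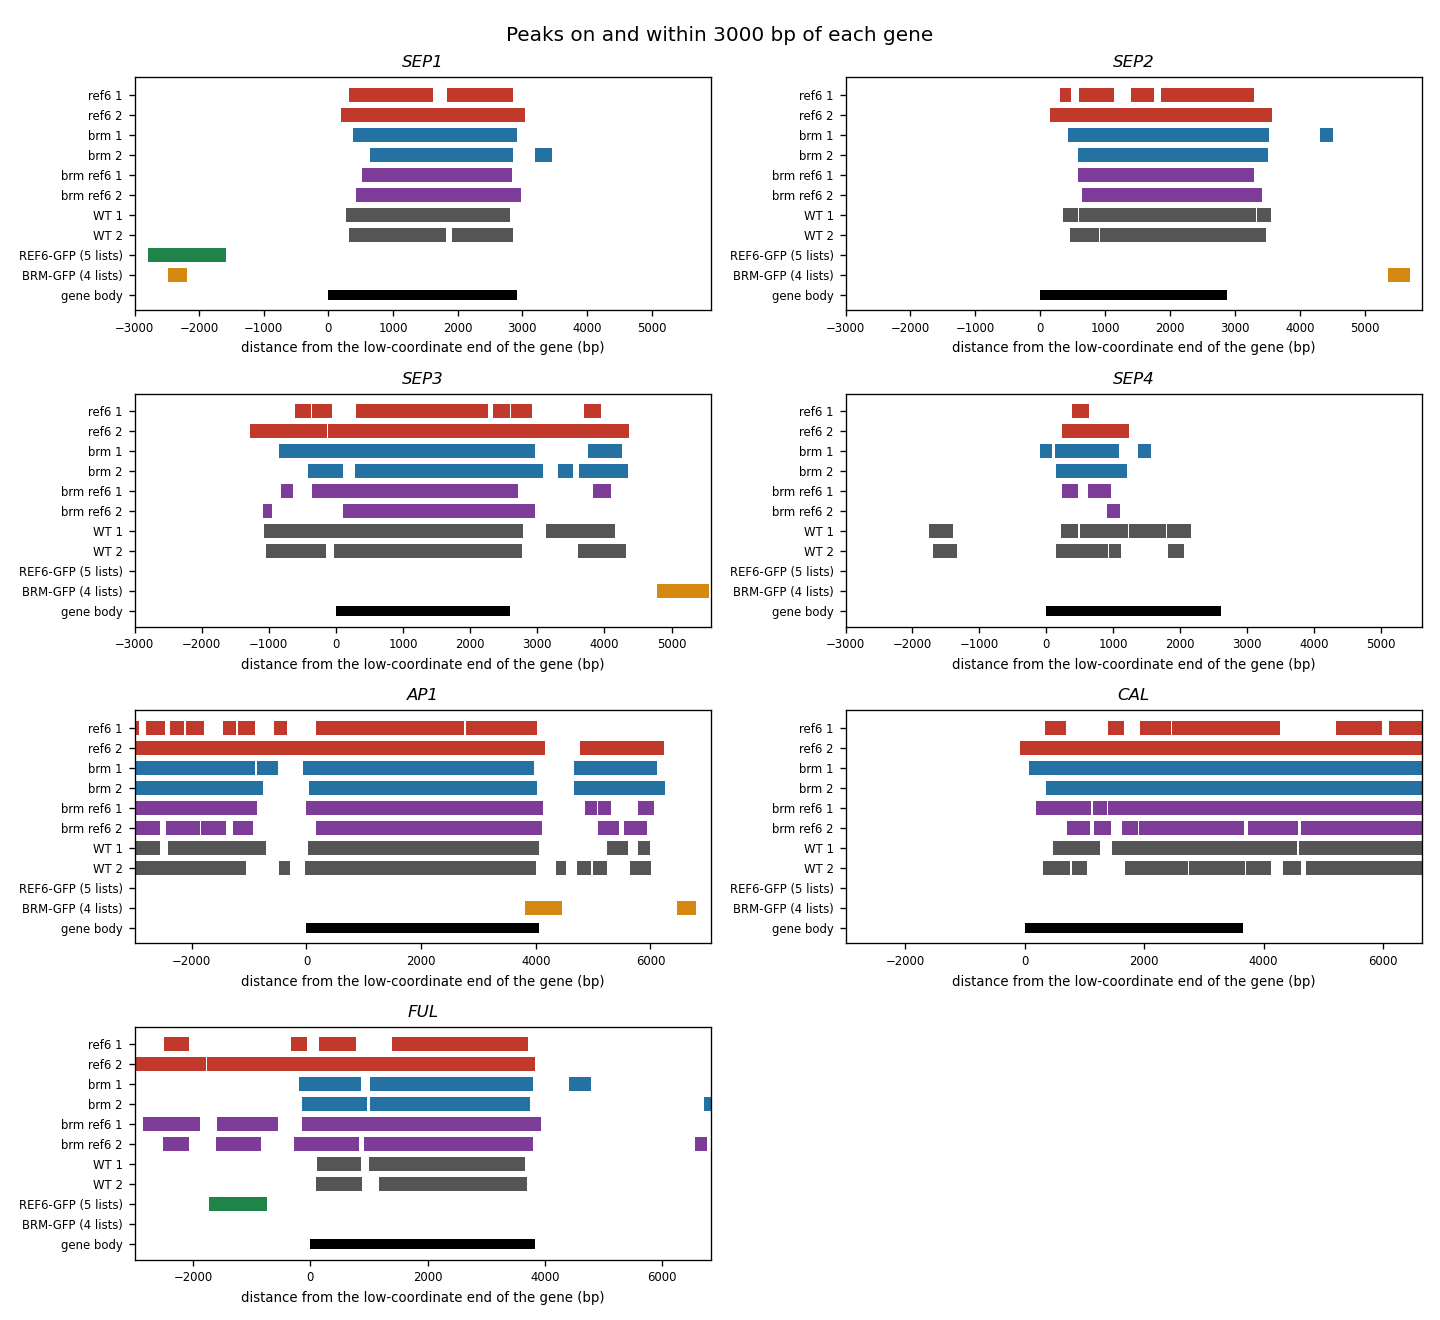
H3K27me3 peaks in each library (coloured rows), all REF6-GFP and BRM-GFP peaks of the 5 and 4 lists drawn together, and the gene body (black), against distance from the low-coordinate end of each gene in bp, out to 3000 bp on either side. The mark covers most of 6 gene bodies and part of SEP4; a REF6-GFP peak lies 740 bp from FUL and a BRM-GFP peak crosses the high-coordinate end of AP1.

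H3K27me3 in the mutants was set against WT to ask whether these genes gain or lose the mark without REF6, BRM or both. A gene was gained where both libraries of a mutant were marked and no WT library was, and lost in the opposite case. None of the 7 genes was gained or lost in any of the 3 mutants. Over all nuclear loci, the shares gained and lost were 1.12% and 0.372% in ref6, 1.34% and 0.0475% with brm alone, and 1.62% and 0.575% in the double mutant. The 6 marked genes could not have been gained, being marked in both WT libraries. SEP4 could not be called gained, because WT replicate 1 was marked at 71.9%, nor lost, because WT replicate 2 lay just under the bound at 46.1%. Without that library SEP4 would count as lost in all 3 mutants.

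Coverage itself was compared with limma, fitted on the 7941 loci that had coverage in at least 2 of the 8 libraries, with Benjamini-Hochberg adjustment over those loci. All 7 genes were among them. In ref6 against WT, 0 of 7 genes passed an adjusted p of 0.05, where 1.59% of loci were higher and 0.277% lower. In brm against WT, 0 of 7 passed, where 0.806% were higher and 0.0504% lower, and in brm ref6 against WT 0 of 7, where 2.66% were higher and 0.365% lower. At an unadjusted p under 0.05, 0, 0 and 1 of the 7 genes passed in those 3 comparisons, where 14.3%, 9.24% and 16.5% of the loci fitted did. SEP4 was the 1 gene, and 1 of 7 is near that background. When all lists were trimmed, lowest scores first, to the same covered length, the split of called loci moved, to 130 higher and 80 lower in ref6 (126 and 22 as deposited), 17 and 60 in brm (64 and 4) and 154 and 120 in brm ref6 (211 and 29). The median difference of the 7 genes was −1.95 points in ref6, −3.06 points in brm and −2.03 points for brm ref6, beside 0, 6.72 and 1.32 points over all loci fitted.

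The largest differences among the 7 genes were those of SEP4. Its coverage averaged 24.0% ± 20.02 in ref6 and 59.0% ± 18.2 in WT (SD, n = 2 each), a difference of −35.1 points (SE 14.9, 95% interval −71.8 to 1.65, limma adjusted p = 0.381). It averaged 15.1% ± 10.3 in brm ref6 (SD, n = 2), −43.9 points from WT (SE 14.9, −80.6 to −7.20, limma adjusted p = 0.215). In brm it averaged 44.1% ± 4.4 (SD, n = 2), −15.0 points from WT (SE 14.9, −51.7 to 21.7, limma adjusted p = 0.994), and between −27.9 and −2.07 points when 1 library was left out. With lists of equal covered length most SEP4 peaks were gone. Each list was cut at its own score, and the long brm lists lost SEP4 peaks that scored 517 and 583. WT kept peaks that scored 331 and 328, and ref6 replicate 1, the shortest list, kept a peak at 99.3. Coverage was then 9.81% and 0% in ref6, 0% in both brm libraries, 0% in both brm ref6 libraries and 27.4% and 29.8% in WT. The differences from WT were then −23.7 points in ref6, −28.6 points in brm and −28.6 points in brm ref6 (limma adjusted p = 0.0805, 0.0789 and 0.0435). The values of brm and brm ref6 were equal because both genotypes were at 0%, so this setting cannot compare the size of their differences. The SE there was 5.31 points, against 14.9 as deposited, with no spread between libraries tied at 0%. The lower adjusted p thus came with a smaller difference in brm ref6, not a larger one. In the lists as deposited, neither ref6 nor brm ref6 overlapped WT at SEP4, and the same held, with the mutant lower, for 10.4% and 16.1% of the loci fitted, while ref6 was the higher without overlap at 17.7%. The exact two-sided permutation p was 0.333 in both, the smallest that 2 libraries against 2 can give.

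CAL and FUL were higher in brm than in WT with no overlap. CAL averaged 94.1% ± 5.5 in brm and 77.3% ± 5.8 in WT (SD, n = 2 each), 16.9 points higher (SE 14.2, 95% interval −18.1 to 51.9, limma adjusted p = 0.953). FUL averaged 95.7% ± 1.1 in brm and 87.6% ± 1.9 in WT (SD, n = 2 each), 8.11 points higher (SE 7.85, −11.3 to 27.5, limma adjusted p = 0.987). Such a split, with brm higher, was found at 38.8% of loci, so 2 of 7 genes is no more than the background. The brm lists were also long, at 10.9 and 10.3 Mb against 7.81 and 6.99 Mb in WT. With all lists trimmed to equal covered length, as above, the difference at FUL turned to −3.06 points (limma adjusted p = 1), and that at CAL was 20.4 points (limma adjusted p = 0.902). FUL in brm ref6 averaged 98.3% ± 2.5 (SD, n = 2), 10.7 points above WT (SE 7.85, −8.65 to 30.1, limma adjusted p = 0.636), where 28.7% of loci were higher with no overlap. CAL in brm ref6 was 6.08 points above WT, and −19.0 points from it with lists of equal length, neither called by the fit. Of the other genes, AP1 was lower in brm than in WT with no overlap (−1.15 points), as 2.05% of loci were. SEP2 was lower in brm ref6 than in WT with no overlap (−6.86 points), as 16.1% of loci were. The exact two-sided permutation p was 0.333 for each, the smallest possible. For SEP1 and SEP2 the 95% intervals of all 3 differences from WT lay within −30.9 and 21.9 points, and for SEP3 and AP1 within −21.3 and 11.97.

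The 4 libraries without REF6 (ref6 and brm ref6) were then set against the 4 with REF6 (brm and WT). SEP4 averaged 19.5% ± 14.0 without REF6 and 51.5% ± 13.9 with it (SD, n = 4 each), −32.0 points (SE 10.5, 95% interval −57.96 to −6.05). The exact two-sided permutation p was 0.0286, the smallest that 4 against 4 can give, and the limma adjusted p over all loci was 0.123, which did not pass. SEP4 was the 1 gene of 7 with an unadjusted limma p under 0.05, where 25.8% of the loci fitted had one. The count of 1 of 7 is not above that background. All 4 libraries without REF6 were below all 4 with it, as at 5.07% of the loci fitted, while 10.6% had the opposite order. The fit called 4.39% of loci lower and 6.72% higher, which is 349 and 534 loci, or 90 and 242 with lists of equal covered length. Without ref6 replicate 1 the difference at SEP4 was −24.9 points, and without ref6 replicate 2 it was −39.1 points (limma adjusted p = 0.170 and 0.0559). With lists of equal covered length it shrank to −11.8 points (SE 3.76, limma adjusted p = 0.140), and the 4 libraries without REF6 then overlapped the 4 with it, both brm libraries being at 0%. In that setting SEP4 was also lower without BRM than with it, by more (−16.7 points, SE 3.76, limma adjusted p = 0.180). The brm libraries had lost peaks there that scored above those kept in WT, so that setting does not show how far brm lay from WT. The cause was not tested.

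No other gene of the 7 separated by REF6. The remaining differences were between −3.12 and 1.79 points, with limma adjusted p of 0.690 or more, though CAL came to −15.7 points with lists of equal length (limma adjusted p = 0.460). They were smaller than the SD over the 4 libraries of each side at SEP1, SEP2, SEP3, CAL and FUL, and at AP1 smaller than the SD of the libraries without REF6. ref6 replicate 1 gave the lowest coverage of 5 of the 7 genes and ref6 replicate 2 the highest of 6, ties included, so the genotype mean of ref6 averages the extremes.

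**Figure D3:**
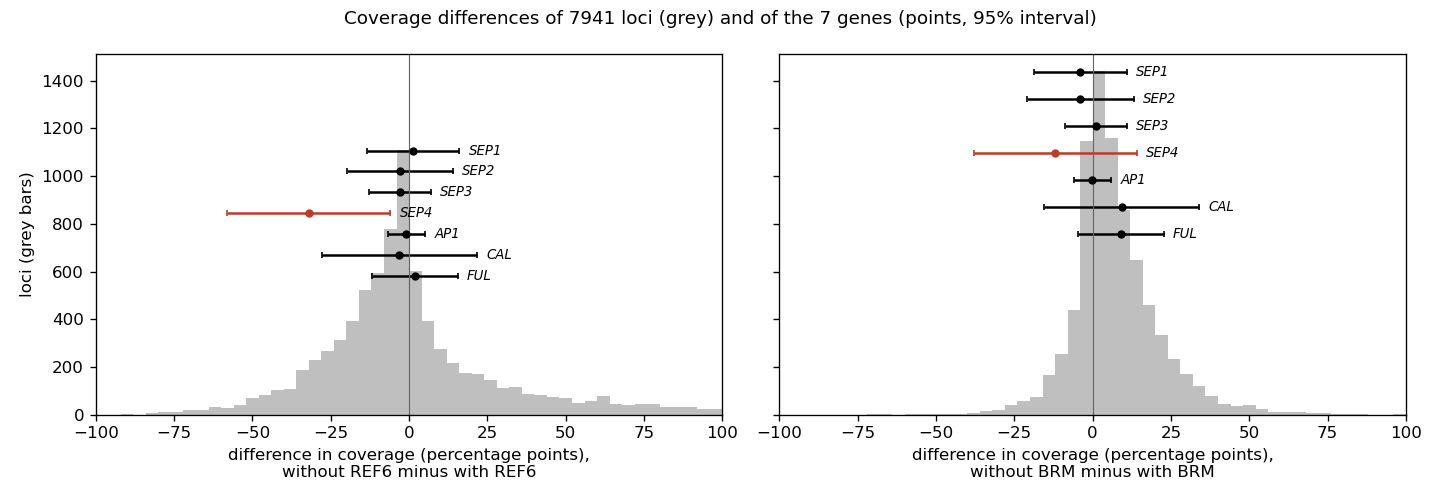
Difference in H3K27me3 coverage in percentage points (x axis) for all 7941 loci fitted (grey bars, number of loci on the y axis) and for the 7 genes (points with the 95% interval of the fit; their height has no meaning); left, libraries without REF6 minus with REF6, and right, without BRM minus with BRM. SEP4 lies at −32.0 points on the left, and the other genes lie near 0 there.

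The 4 libraries without BRM (brm and brm ref6) were set in the same way against the 4 with BRM (ref6 and WT). No gene of the 7 separated, where 1.96% of loci were higher and 0.151% lower without overlap, and none passed the fit, which called 0.063% of loci higher and 0 loci lower (820 loci had an unadjusted p under 0.05). FUL averaged 97.0% ± 2.2 without BRM and 88.0% ± 9.5 with it (SD, n = 4 each), 8.93 points higher (SE 5.55, limma adjusted p = 0.755, exact two-sided permutation p = 0.143). CAL was 9.20 points higher (SE 10.03, limma adjusted p = 0.893), beside a median of 4.94 points over all loci. FUL depended on the ref6 libraries. It was 3.19 points higher without ref6 replicate 1 (limma adjusted p = 0.417) and 14.7 points higher without ref6 replicate 2 (limma adjusted p = 0.0162), a setting in which 775 loci were called higher. With lists of equal length FUL was 1.21 points higher and CAL was lower (−3.35 points), with limma adjusted p of 1 and 0.973. The interaction of the 2 mutations passed for none of the 7 genes and for 0 of 7941 loci (454 had an unadjusted p under 0.05). That count of loci did not stay at 0 in every fit with a library left out. At SEP4 the interaction was 6.11 points (SE 21.0, 95% interval −45.8 to 58.0).

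Peaks of the GFP fusions were looked for within 1000 bp of each gene body. REF6-GFP had 1 such peak, at FUL in the first library, and none at any of the 7 genes in the 2 brm or the 2 WT libraries. Over all nuclear loci the share with a peak was 25.4% in the first REF6-GFP list, 13.3% and 7.13% in brm and 11.2% and 7.80% in WT. The count of 1 of 7 in the first list is not above that background. With no peak on either side, none of the 7 genes could differ between brm and WT, where 0.272% of loci had a peak in both brm lists and neither WT list and 0.0976% the reverse.

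The FUL peak was chr5:24500707-24501694 with a score of 95.5, and it lay 740 bp beyond the low-coordinate end of FUL, on the neighbouring gene RLK1 (AT5G60900). H3K27me3 at that site, looked at after the peaks had been seen, was found in 3 of the 4 libraries without REF6 and in none of the 4 with it. The site was covered over 0% and 100% in ref6, 86.1% and 78.6% in brm ref6, 0% in both brm libraries and 0% in both WT libraries. RLK1 itself had 12.4% and 83.5% of its body covered in ref6, 67.0% and 36.1% in brm ref6, and 0% in the 4 brm and WT libraries. Of the 5413 first-library REF6-GFP peaks, 9.90% were likewise bare in all 4 libraries with REF6 and overlapped in at least 3 of the 4 without. The 1000 bp next to FUL on that side were covered over 57.9% ± 31.2 without REF6 and 8.55% ± 10.2 with it (SD, n = 4 each). These values did not overlap (26.8% to 100% without REF6, 0% to 20% with it; exact two-sided permutation p = 0.0286, the smallest possible, unadjusted). Of the 14 such flanks of the 7 genes, 9 had coverage in at least 2 libraries, and 1 of those 9, at FUL, was higher without overlap. Over all loci, 6.54% of the 14006 flanks tested were higher in that way and 3.86% lower. The FUL gene body did not separate by REF6, as given above.

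The nearest REF6-GFP peak to SEP1 lay 1585 bp away in the first list (chr5:5148541-5149749, score 460), on the neighbouring gene AT5G15790, where a weak BRM-GFP peak of the first list also lay (score 61.0). Neither site had H3K27me3 in any of the 8 lists, and AT5G15790 was bare as well. In the 4 later REF6-GFP lists the nearest peak to SEP1 stood 4872 to 5261 bp off. At SEP3 the nearest REF6-GFP peaks were 3216 to 7247 bp away in the 5 lists. At AP1 they were 46336 bp away or more, and at SEP4 11096 to 107963 bp away.

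BRM-GFP had a peak within 1000 bp of 1 of the 7 genes, AP1, in 2 of the 4 lists. In the first library it was chr1:25986106-25986756 with a score of 276, and 244 bp of it lay on AP1 and 407 bp beyond its high-coordinate end. In ref6 replicate 2 a smaller peak stood inside it, chr1:25986285-25986461 with a score of 59.5. BRM-GFP in ref6 replicate 1 and in WT had no peak closer to AP1 than 56214 and 83093 bp. AP1 had the peak in 1 of 2 ref6 lists and not in the WT list, so it was not called gained, nor was any other gene of the 7 gained or lost between ref6 and WT, where 1.37% and 1.90% of loci were. The share of loci with a peak was 38.1% in the first BRM-GFP list, 5.73% and 6.07% in ref6 and 4.74% in WT. This site was in part under the mark in all 8 lists. H3K27me3 covered 31.0% and 54.2% of the first-library BRM-GFP peak in ref6, 23.5% and 32.3% in brm, 47.8% and 44.7% in brm ref6 and 37.9% and 45.9% in WT. The genotypes with and without BRM overlapped there.

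Beyond the 1000 bp window, the first BRM-GFP list held peaks 2201 bp from SEP3 (chr1:8598324-8599098, score 562), 2181 bp from SEP1 and 2481 bp from SEP2 (score 51.8). A further peak of that list lay 2402 bp from AP1 (chr1:25988751-25989082, score 65.0). None of these sites had H3K27me3 in any of the 8 lists. In the later BRM-GFP lists the nearest peaks to SEP1, SEP2 and SEP3 were at least 12816 bp away.

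**Figure D4:**
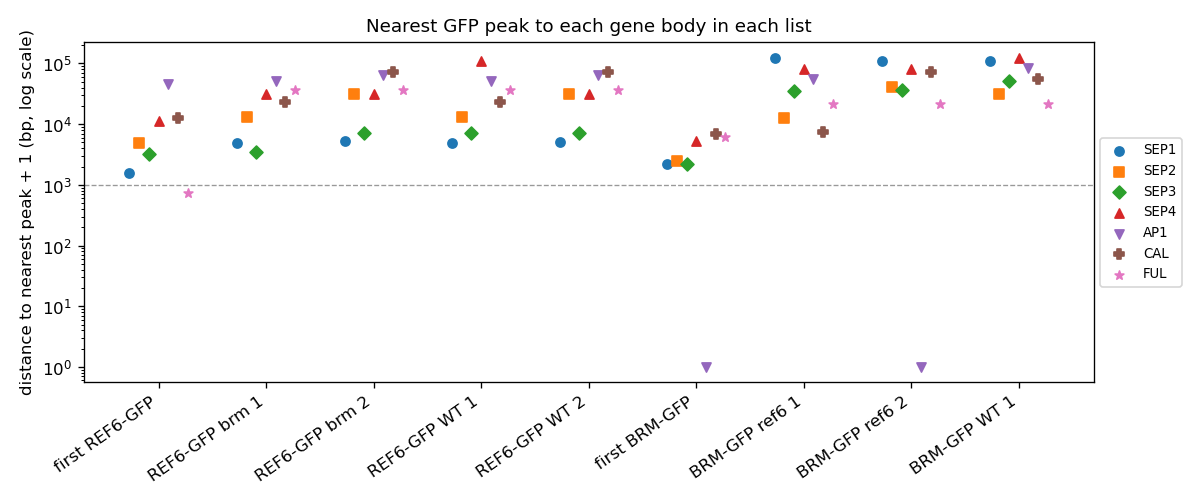
Distance in bp from each gene body to the nearest peak, plus 1, on a log scale (y axis) in the 5 REF6-GFP and 4 BRM-GFP lists (x axis; the number is the replicate); the dashed line is the 1000 bp bound. Points below the line are FUL in the first REF6-GFP list and AP1 in the first BRM-GFP list and in BRM-GFP ref6 replicate 2.

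Other genes of the flowering pathway gave a frame for these values. Of 3 near relatives, AGL13 was marked in all 8 libraries, and 0 of the 3 passed the fit in any comparison. AGL79, the remaining member of the AP1 clade, was gained in brm, with 10.1% and 64.4% in ref6, 63.4% and 83.1% in brm, 22.5% and 23.3% in brm ref6 and 47.5% and 37.4% in WT. Of 7 floral organ identity genes 4 were marked in all 8 libraries and 1, AP2, in none. SHP2, a fruit and ovule gene, was gained in brm (62.0% and 61.6%) and in brm ref6 (57.6% and 53.6%), with 49.7% and 47.9% in WT just under the bound. In the fit 0 of the 6 organ identity genes that could be fitted passed. Beside the gains of AGL79 and SHP2, 1.34% of all nuclear loci were gained in brm and 1.62% in brm ref6. The brm lists were also longer than those of WT, as given above. Of 13 upstream regulators, 2 were marked in all 8 libraries and 6 in none. SOC1, a MADS-box gene that promotes flowering, was the 1 of 8 fitted that passed, with 0% and 22.3% in ref6, 0% in both brm ref6 libraries, 51.1% and 60.4% in brm and 56.4% and 47.5% in WT. Without REF6 it was lower by 48.3 points (−48.3, SE 7.93, limma adjusted p = 0.0205), where the fit called 4.39% of loci lower and 6.72% higher. Values of SOC1 with lists of equal length or with a library left out are not given here. A peak of REF6-GFP in any list lay at 0 of 3, 4 of 7 and 2 of 13 of these genes, and one of BRM-GFP at 1 of 3, 3 of 7 and 5 of 13, beside 1 of 7 each for the SEPALLATA and AP1 clade genes. Over all loci, 29.1% had a REF6-GFP peak in at least 1 list and 40.5% a BRM-GFP peak.

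SEP4 was the gene of the 7 whose genotype means differed most, by 43.9 points, and the genes most like it were ranked by the mean absolute difference from its coverage over the 8 libraries. The 5 closest protein-coding genes were AT4G32375 (5.68 points), FAR1 (AT5G22500, a fatty acyl reductase gene, 6.01 points), ATPMEPCRB (AT4G02330, a pectin methylesterase gene, 7.02 points), AT3G27400 (7.39 points) and TT8 (AT4G09820, a bHLH regulator of flavonoid synthesis, 8.16 points). FAR1, ATPMEPCRB and TT8 are not MADS-box genes by their symbols, and AT4G32375 and AT3G27400 have no symbol that names a family. FAR1 had 4.57% and 40.8% in ref6, 44.2% and 42.3% in brm, 16.3% and 12.9% in brm ref6 and 54.1% and 39.3% in WT. Its ref6 replicate 2 thus overlapped WT, as did that of ATPMEPCRB (45.8%, with 42.1% and 41.1% in WT). At AT4G32375, AT3G27400 and TT8 ref6 replicate 2 had 34.0%, 30.9% and 37.3%, and the lower WT library 44.6%, 46.5% and 42.1%. At those genes, as at SEP4, all 4 libraries without REF6 lay below all 4 with it. The 5 genes were chosen for coverage near that of SEP4, so a like order comes in part from the choice. It lends no weight to the order at SEP4.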

How the data were processed

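Peak lists of 17 libraries were used, 8 for H3K27me3 and 9 for GFP; 10 input samples were not analysed here. The submitters' processing notes name Bowtie2 2.2.5, MACS 1.4 and TAIR10, with no roles stated. The score in the lists deposited by the authors is never below 50 and was read as what MACS 1.4 writes there, −10 times log10 of the p-value. The control of each call and its options: not given in the sources used here. Gene bodies came from the RefSeq table of TAIR10.1, which has no strand; printed coordinates are those of the peaks, counted from 1.

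The percent of each gene body under H3K27me3 peaks was computed per library. limma 3.58.1 in R 4.3.3 was fitted with 4 genotype means, a mean-variance trend and robust moderation, at an adjusted p of 0.05. A check on simulated data planted only gains, at loci of low coverage and by REF6 state. It does not cover losses, genes of high coverage or the comparisons of each mutant with WT. GFP peaks counted when at least 1 bp lay within 1000 bp of a gene. Values are means ± SD over libraries. No pair of lists shared a peak identical in position and score (0 in all). The 7 genes and the lists were chosen with earlier results of these data known. Named are the 7 genes and members of the pathway lists called by a rule or the fit. The 5 genes most like the most variable member are named too. Neighbouring genes and the coverage values of those 5 genes were added after the data were seen. Alternatives were a score of at least 100, other bounds, windows and overlaps, other filters and scales, lists of equal covered length, leaving out each library, and a block for replicate number.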

Additional observations from a re-analysis of the deposited data

Results flagged for a closer look

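Single libraries were compared with the other 3 of the same REF6 state, in 14 groups of 4 libraries, by the gap to the nearest library as a share of the whole range. SEP3 in brm replicate 2 (93.2%) stood apart from the 3 other libraries with REF6, all at 100%. FUL in ref6 replicate 1 (77.0%) stood apart from the other 3 libraries without REF6 (96.5% to 100%). Chance gives such a gap in about 1 of 20 groups for an uncapped measure. Coverage cannot exceed 100%, and with the 3 other SEP3 values tied there any lower value would stand apart, so that figure does not hold for SEP3 and is uncertain for FUL, where 2 values were at 100%.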

How the results depend on the processing

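Of the 7 genes, 2 instead of 6 were marked in all libraries at a bound of 80%, where SEP2 also counted as lost in brm ref6 (1 gene instead of 0). Leaving out a library gave 0 to 1 gained or lost genes in each mutant; the 1 was SEP4, lost without WT replicate 2. A REF6-GFP peak lay at 0 genes with the gene body only, with a score of at least 100, or with at least 50% of the peak inside, and at 2 within 3000 bp (SEP1, FUL); without the first REF6-GFP library the count was 0, so the range over left-out libraries was 0 to 1. A BRM-GFP peak lay at 4 within 3000 bp (SEP1, SEP2, SEP3, AP1). Without BRM-GFP ref6 replicate 1, AP1 counted as gained in ref6 (0 to 1 over left-out libraries). In the fit, lists of equal covered length gave 1 gene, SEP4 in brm ref6 (−28.6 points, SE 5.31, limma adjusted p = 0.0435). There 154 loci were called higher and 120 lower. Both brm ref6 libraries were at 0% there, with no spread between them, and the difference as deposited was larger (−43.9 points, SE 14.9). With all 8 libraries kept, the limma adjusted p of SEP4 in brm ref6 was 0.0435 to 0.433 over the alternatives. With 1 library left out its difference was −56.8 to −31.0 points. Leaving out libraries gave 0 to 1 genes by REF6 state (FUL, 7.53 points, limma adjusted p = 0.04997 without ref6 replicate 1, and −3.96 points without ref6 replicate 2) and 0 to 1 by BRM state (FUL without ref6 replicate 2). SEP4 was lower without REF6 under all 13 alternatives, with limma adjusted p of 0.123 as deposited and 0.140 with lists of equal length. With lists of equal length it was lower by less (−11.8 points) than without BRM (−16.7 points), the brm libraries being at 0%. In that setting CAL was under the 50% bound in brm ref6 replicate 2 (47.6%). The fit with no filter on low coverage could not be fitted, most loci having no variance. Causes were not tested.

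With the replicate number as a block, 0 of 7 genes passed in any comparison (SEP4 by REF6 state, limma adjusted p = 0.194), and 211 loci were higher and 79 lower without REF6, against 534 and 349. Replicate differences of the genotypes correlated between −0.211 and 0.103 over 7941 loci, so the shared numbers were not taken as pairs. The numbers of loci behind the background shares also moved: gained in ref6, 425 loci (171 to 1638), in brm, 508 (509 to 1087), in brm ref6, 614 (306 to 1396); lost, 141 (58 to 1051), 18 (7 to 100) and 218 (150 to 657). In the fit, loci higher were 126 in ref6 (0 to 848), 64 in brm (0 to 227) and 211 in brm ref6 (0 to 585), and loci lower 22 (0 to 637), 4 (0 to 60) and 29 (0 to 143). By REF6 state they were 534 higher (122 to 975) and 349 lower (79 to 1251), and by BRM state 5 higher (0 to 775) and 0 lower (0 to 122).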
